A study of Mus musculus with 9 samples.

Results

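Nestin, vimentin and 8 other genes of the intermediate filament family were followed across sorted cells of the newborn mouse retina. The 10 genes were chosen by symbol: the progenitor and glial filament genes Nes, Vim and Gfap, the neurofilament genes Nefl, Nefm, Nefh and Ina, and the lamin genes Lmna, Lmnb1 and Lmnb2. All 10 were measured among 18193 genes, and 25 probe sets were annotated to these symbols alone. Each gene is given by its probe set with the highest mean over the 9 arrays, and the other probe sets are set beside it.

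RNA came from retinal cells sorted by GFP fluorescence, and 3 biological replicates were hybridised for each of 3 groups. The rhoEGFP line, which marks rods, was sorted at postnatal day 4 (P4) into the rhoGFP-positive and the rhoGFP-negative group. The pNestin-GFP line, which marks progenitors, was sorted at postnatal day 0 (P0), and its positive cells form the nestinGFP-positive group. All mice had a C57BL/6J-129/Ola background, and retinae of 6 to 8 mice were combined for a replicate. Which regulatory fragment drives each reporter is stated in none of the sources used here, and GFP-negative cells of the pNestin-GFP line were not analysed here.

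Intermediate filaments are rope-like polymers of coiled-coil proteins. Retinal progenitors and Müller glia build them from vimentin and nestin, reactive glia and astrocytes add the glial fibrillary acidic protein GFAP, and neurons build neurofilaments from light, medium and heavy chains and α-internexin. Lamins form the meshwork under the inner nuclear membrane. Adult mouse rods are known for an inverted nucleus with heterochromatin in its centre, and for lacking both lamin A/C and the lamin B receptor.

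Values are RMA signals on the log2 scale. Differences were tested with limma over all genes, and a gene was called changed at a Benjamini-Hochberg adjusted p below 0.05 and a difference of at least 1 log2 unit, which is 2-fold. The markers ran with the rhoGFP-positive label: limma called 9 of 9 rod markers higher and 9 of 10 progenitor markers lower in these cells than in either other group. Between rhoGFP-negative and nestinGFP-positive cells it called 0 of 10 progenitor and 0 of 8 proliferation markers, where 0.989% of all genes were called. At an unadjusted p below 0.05, 5 of these progenitor and 8 of these proliferation markers were lower in the rhoGFP-negative cells. The median of all probe sets ran from 6.08 to 6.17 over the 9 arrays, the table has no detection calls, and the number of arrays limits the precision (median standard error of a difference 0.141). Replicate 1 of each group had a higher control signal for 18S ribosomal RNA (12.1 to 13.6, against 9.65 to 10.4 on the other arrays). The 3′ minus 5′ difference of the actin controls, a sign of RNA integrity, was 0.85 to 0.97 in the rhoGFP-positive, 0.64 to 0.68 in the rhoGFP-negative and 0.40 to 0.99 in the nestinGFP-positive arrays. The part of either in the results was not tested.

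In rod-reporter cells the vimentin, α-internexin and medium neurofilament genes were lower, and the heavy neurofilament gene higher, than in either other group. Against rhoGFP-negative cells of the same age, limma called Vim, Ina and Nefm lower and Nefh higher in the rhoGFP-positive cells, which is 4 of 10 members (40%) where 10.9% of all genes tested were called (3.61% higher and 7.32% lower). Against nestinGFP-positive cells, Vim, Ina, Nefm, Nefl and Lmnb1 were called lower and Nefh higher, 6 of 10 members (60%) where 15.6% of all genes were called (5.06% higher and 10.5% lower). The median log2 difference of the 10 members was -0.46 and -1.07 in these comparisons, where that of all genes was 0.0094 and 0.0638. Without the fold minimum limma called 4 members against rhoGFP-negative and 8 against nestinGFP-positive cells, where 24.3% and 35.8% of all genes passed. The ranges of the 3 arrays of each group lay apart for 5 and 7 members, where they did so for 38.2% and 47.8% of all genes. Between the rhoGFP-negative and the nestinGFP-positive cells limma called 0 of 10 members, with 3 at an unadjusted p below 0.05, where 0.989% of all genes were called (0.385% higher and 0.605% lower) and 2.03% passed without the fold minimum. Ranges lay apart for 3 of the 10, where they did so for 20.6% of all genes. The comparisons share arrays. Between nestinGFP-positive cells and either rhoGFP group, age, line and cell population cannot be told apart. Throughout, fewer cells of a type and less RNA per cell cannot be told apart in these pooled samples.

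**Figure D1:**
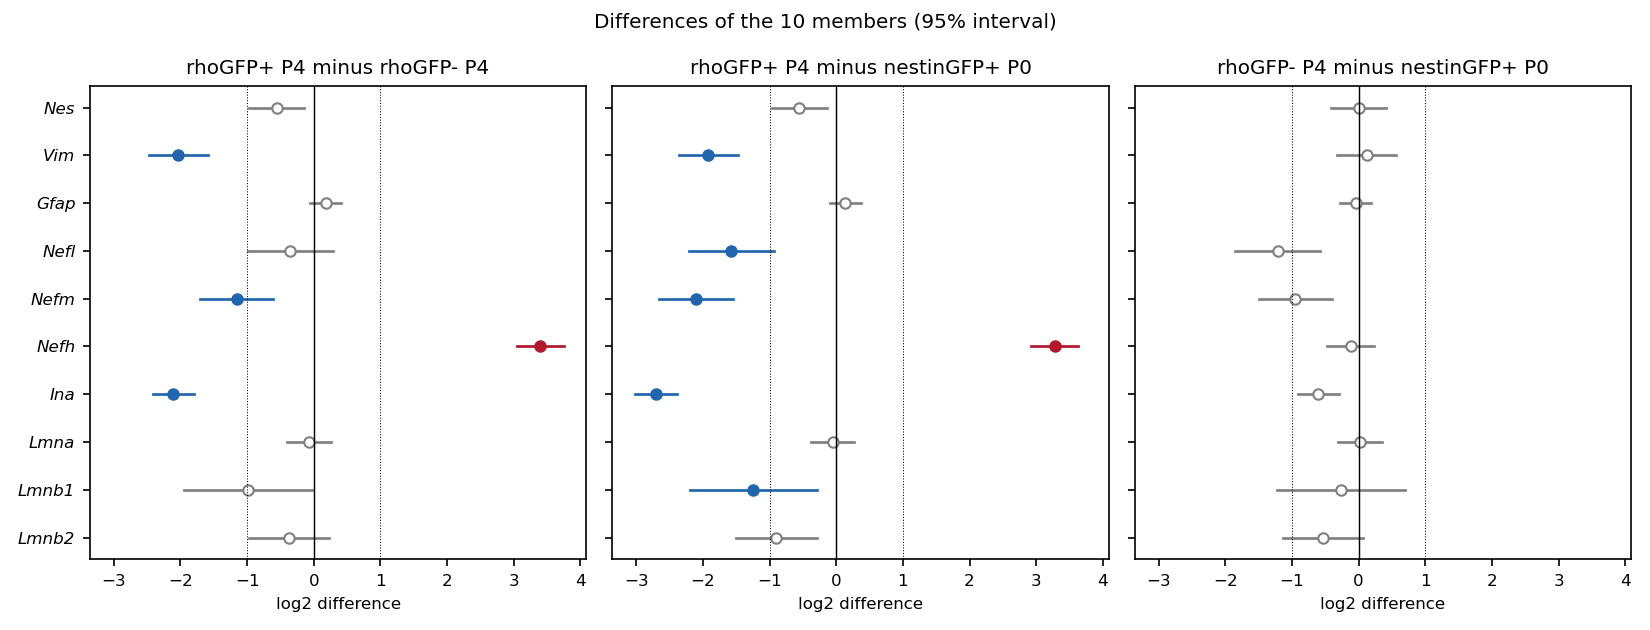
Log2 difference of each of the 10 members in the 3 comparisons, with its 95% interval from limma. Filled points were called (blue lower, red higher), open points were not, and dotted lines mark a difference of 1 log2 unit. Nefh lies at 3.40 and 3.28 in the comparisons of rhoGFP-positive cells, while Vim and Ina lie at -1.92 or below.

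The promoters of Vim and Ina, which fell in both comparisons, and of Nes, whose name the reporter carries, are shown to set their sequence beside these values. They are the 250 bases before the gene start in RefSeq (build GRCm38.p6, all on the plus strand) at chr2:13574061-13574310 for Vim, chr19:47014431-47014680 for Ina and chr3:87970843-87971092 for Nes. Capitals mark exact matches, on either strand, to the CCAAT box (CCAAT) or the GC box (GGGCGG).
Vim: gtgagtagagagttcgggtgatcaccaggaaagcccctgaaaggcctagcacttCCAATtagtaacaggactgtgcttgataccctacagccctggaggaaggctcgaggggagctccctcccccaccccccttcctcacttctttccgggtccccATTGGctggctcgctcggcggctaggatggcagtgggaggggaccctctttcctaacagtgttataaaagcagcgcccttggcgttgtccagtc
Ina: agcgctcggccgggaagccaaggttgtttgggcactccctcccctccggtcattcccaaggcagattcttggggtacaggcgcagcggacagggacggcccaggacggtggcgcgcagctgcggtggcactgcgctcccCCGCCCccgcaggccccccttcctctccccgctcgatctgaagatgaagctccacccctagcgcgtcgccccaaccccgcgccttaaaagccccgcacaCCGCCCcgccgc
Nes: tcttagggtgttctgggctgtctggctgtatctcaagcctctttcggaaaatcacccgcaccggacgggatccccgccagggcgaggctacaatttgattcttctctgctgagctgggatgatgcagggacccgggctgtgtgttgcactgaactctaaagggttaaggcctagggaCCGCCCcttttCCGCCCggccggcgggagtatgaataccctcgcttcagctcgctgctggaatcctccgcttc
Vim held CCAAT at 196 bases before the start and, on the other strand, at 94 bases. Ina held the GC box, on the other strand, at 111 and 12 bases and Nes at 73 and 62 bases before the start. CCAAT occurred in 33.8% and GGGCGG in 32.7% of 32851 promoter windows of the same 250 bases, so that either match is common. The other motifs searched on both strands, TTCCCGC and TTGGCGC of the E2F type and TAATCC of the Crx type, had no match in these 3 windows and occurred in 3.8%, 2.0% and 6.3% of all windows. No matches overlapped, and a match is a description of the letters and not a site.

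Nes encodes nestin, the filament protein that names the reporter of the P0 cells. Its signal was 7.74, 8.28 and 8.11 in the rhoGFP-positive replicates 1, 2 and 3, against 8.38, 8.45 and 8.96 in the rhoGFP-negative and 8.45, 8.64 and 8.70 in the nestinGFP-positive replicates. The rhoGFP-positive arrays were the 3 lowest, and the ranges of the other groups overlapped. Nes was lower in rhoGFP-positive cells by a log2 difference of -0.56 ± 0.18 (SE, n = 3 each) against rhoGFP-negative cells (limma adjusted p = 0.0547) and -0.55 ± 0.18 against nestinGFP-positive cells (limma adjusted p = 0.0406). At 1.47-fold, both differences were below the 2-fold minimum. With the replicate number as a block, the adjusted p of limma was 0.0103 against rhoGFP-negative cells at the same size. Against nestinGFP-positive cells it was 0.00785, where the values did not show that the numbers pair the arrays.

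The nestin reporter cells and the GFP-negative cells of the rhoEGFP line had overlapping Nes signals. Nes averaged 8.60 ± 0.32 in rhoGFP-negative cells and 8.60 ± 0.13 in nestinGFP-positive cells (SD, n = 3 each), and the 95% interval of the difference ran from -0.412 to 0.415. The 3 Nes probe sets ran the same way against the rhoGFP-positive cells, with differences of -0.56, -0.61 and -0.72 against rhoGFP-negative cells. Against nestinGFP-positive cells they were -0.55, -0.49 and -1.11. The last, the dimmest of the 3 with signals of 4.18, 4.39 and 4.52 in rhoGFP-positive against 5.68, 5.76 and 4.99 in nestinGFP-positive cells, was called in the fit over all probe sets (limma adjusted p = 0.00482).

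Vim encodes vimentin, the main filament protein of retinal progenitors and Müller glia and also of vessels and fibroblasts. Its signal was 9.26, 8.84 and 9.52 in rhoGFP-positive cells, against 11.19, 11.02 and 11.52 in rhoGFP-negative and 11.37, 11.06 and 10.94 in nestinGFP-positive cells. Each rhoGFP-positive array lay at least 1 log2 unit below each other array. Vim was 4.11-fold lower than in rhoGFP-negative cells (-2.04 ± 0.20, limma adjusted p = 6.29e-05) and 3.78-fold lower than in nestinGFP-positive cells (-1.92 ± 0.20, limma adjusted p = 5.61e-05). All 3 of its probe sets were called in both comparisons, at -1.87 to -2.15. Between rhoGFP-negative and nestinGFP-positive cells the difference was 0.12, with a 95% interval from -0.324 to 0.566.

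Vim moved with the lists of Müller glia and progenitor markers. The median of 8 Müller glia markers was 7.18 to 8.16 in rhoGFP-positive, 9.96 to 10.48 in rhoGFP-negative and 9.05 to 9.70 in nestinGFP-positive arrays, and 5 of 8 were called lower in rhoGFP-positive cells in each comparison. The median of 10 progenitor markers was 8.23 to 8.90, 10.42 to 11.03 and 11.06 to 11.37 in the same order of groups. Of 13 endothelial, mural and fibroblast markers 4 (Cldn5, Kdr, Col4a1 and Col4a2) were called lower in each comparison and 9 were not called. Their list medians were 5.66 to 5.79, 6.09 to 6.17 and 5.77 to 6.12. The median difference of this list was -0.12 against rhoGFP-negative and 0.04 against nestinGFP-positive cells. The endothelial genes Pecam1, Cdh5 and Tek were dim on all arrays, between 3.35 and 4.94. The part of these cell types in the fall of Vim was not tested.

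**Figure D2:**
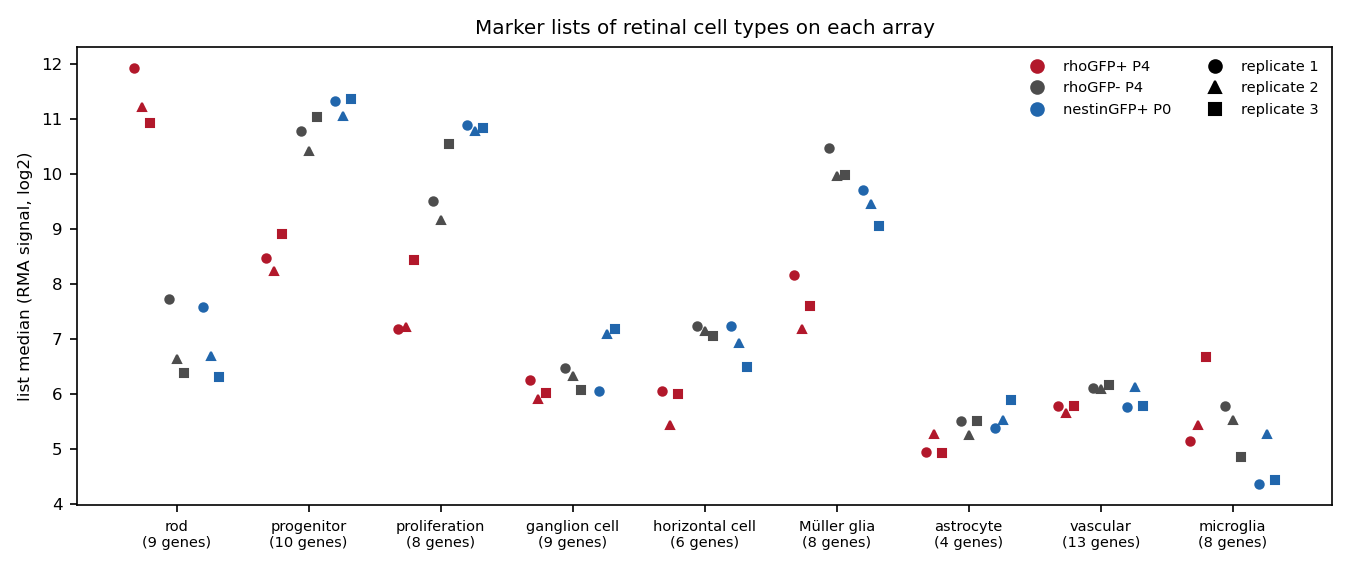
Median RMA signal (log2) of the measured members of each marker list on each of the 9 arrays, coloured by group, with the replicate number as the symbol. The rod list is high and the progenitor, proliferation and Müller lists are low in rhoGFP-positive arrays. The microglia list is highest on rhoGFP-positive replicate 3, at 6.68.

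Gfap, the marker of astrocytes and reactive glia, was dim everywhere. Its brightest probe set gave 5.53, 5.73 and 5.61 in rhoGFP-positive, 5.57, 5.34 and 5.41 in rhoGFP-negative and 5.43, 5.50 and 5.53 in nestinGFP-positive cells. These values lie below the median of all probe sets on each array, where a signal cannot be told from background without detection calls. The groups overlapped, none of the 3 probe sets was called in any comparison, and the difference against rhoGFP-negative cells had a 95% interval from -0.0527 to 0.409. Of 4 measured astrocyte markers 1 was called lower in rhoGFP-positive cells in each comparison, with list medians of 4.92 to 5.28 in rhoGFP-positive, 5.25 to 5.51 in rhoGFP-negative and 5.39 to 5.89 in nestinGFP-positive arrays.

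Ina encodes α-internexin, the neurofilament subunit that young neurons make early. Its signal was 7.90, 8.06 and 8.14 in rhoGFP-positive, 9.94, 10.44 and 10.04 in rhoGFP-negative and 10.74, 10.80 and 10.68 in nestinGFP-positive cells. The 3 groups did not overlap. The log2 difference of rhoGFP-positive cells was -2.10 ± 0.14 against rhoGFP-negative cells (4.30-fold, limma adjusted p = 8.46e-06) and -2.71 ± 0.14 against nestinGFP-positive cells (6.53-fold, limma adjusted p = 1.46e-06). All 3 probe sets were called in both comparisons. The rhoGFP-negative cells stood at -0.60 ± 0.14 against nestinGFP-positive cells, which did not pass (limma adjusted p = 0.06). With the replicate number as a block the adjusted p of limma was 0.0132, at a size below 2-fold.

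Nefm, the medium neurofilament chain, gave 6.72, 7.03 and 6.92 in rhoGFP-positive, 7.57, 8.50 and 8.09 in rhoGFP-negative and 8.56, 9.28 and 9.16 in nestinGFP-positive cells. The groups again lay in this order without overlap. It was 2.23-fold lower in rhoGFP-positive than in rhoGFP-negative cells (-1.16 ± 0.25, limma adjusted p = 0.0069) and 4.31-fold lower than in nestinGFP-positive cells (-2.11 ± 0.25, limma adjusted p = 0.00012). Without rhoGFP-negative replicate 2, its highest array in that group, the difference between the rhoGFP fractions was -0.94 and below the 2-fold minimum (limma adjusted p = 0.0255). The rhoGFP-negative cells stood at -0.95 ± 0.25 against the nestinGFP-positive cells (limma adjusted p = 0.0794), and at -1.17 without nestinGFP-positive replicate 1 it was called (limma adjusted p = 0.0397). With the replicate number as a block the adjusted p of limma was 0.00237, at a size just below 2-fold.

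Nefl, the light chain and the gene next to Nefm in the RefSeq annotation of GRCm38.p6, was called lower in rhoGFP-positive cells against nestinGFP-positive cells and did not pass against rhoGFP-negative cells. Its signal was 6.88, 6.85 and 7.08 in rhoGFP-positive, 7.01, 7.84 and 7.03 in rhoGFP-negative and 7.90, 8.93 and 8.70 in nestinGFP-positive cells. The rhoGFP fractions overlapped, and the lowest nestinGFP-positive array lay just above the highest of the 6 others. Against nestinGFP-positive cells the difference was -1.57 ± 0.28 (2.97-fold, limma adjusted p = 0.00183), and both probe sets were called. Against rhoGFP-negative cells it was -0.35, with a 95% interval from -0.994 to 0.285 (limma adjusted p = 0.456), and without rhoGFP-negative replicate 2, the highest array of that group, it was -0.08. In rhoGFP-negative against nestinGFP-positive cells it was -1.22 ± 0.28 (limma adjusted p = 0.0622). With the replicate number as a block Nefl was called there (limma adjusted p = 0.00719), though whether the numbers pair the arrays of these groups is unclear. It was also called without nestinGFP-positive replicate 1 (-1.52, limma adjusted p = 0.0228).

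Nefh, the heavy chain that mature axons add last, ran the other way. Its signal was 8.56, 8.57 and 8.12 in rhoGFP-positive cells, against 5.27, 4.90 and 4.88 in rhoGFP-negative and 5.06, 5.25 and 5.11 in nestinGFP-positive cells. The 3 rhoGFP-positive arrays stood apart from all 6 others, which overlapped among themselves and were dim. Those 6 arrays lie below the median of all probe sets, where a signal cannot be told from background, so the measured folds may understate the differences. The measured fold was 10.6 against rhoGFP-negative cells (log2 difference 3.40 ± 0.16, 95% interval 3.05 to 3.75, limma adjusted p = 1.9e-06). Against nestinGFP-positive cells it was 9.70 (3.28 ± 0.16, 95% interval 2.93 to 3.63, limma adjusted p = 1.07e-06). Within replicate numbers 1, 2 and 3 the difference between the rhoGFP fractions was 3.29, 3.67 and 3.24. The array has 1 probe set annotated to Nefh alone, so no other probe set was at hand to set beside it. Between the dim groups the difference was -0.12, with a 95% interval from -0.472 to 0.228.

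The neurofilament genes are set beside markers of ganglion and horizontal cells, neurons rich in neurofilaments. Of 9 ganglion cell markers 3 were called lower in rhoGFP-positive cells against each other group, with list medians of 5.90 to 6.26 in rhoGFP-positive, 6.08 to 6.47 in rhoGFP-negative and 6.06 to 7.19 in nestinGFP-positive arrays. Limma called 0 of them higher in rhoGFP-positive cells, also at an unadjusted p below 0.05. Those called lower were Stmn2, Gap43 and Ebf3 against rhoGFP-negative and Stmn2, Gap43 and Rbpms against nestinGFP-positive cells. Pou4f1, Sncg, Thy1 and Slc17a6 were not called. They stood at 0.11 to 0.19 against rhoGFP-negative and -0.63 to -0.27 against nestinGFP-positive cells. The stathmin gene Stmn2 was at 7.57, 7.67 and 7.92 in rhoGFP-positive, 8.52, 9.95 and 9.71 in rhoGFP-negative and 10.39, 11.03 and 10.70 in nestinGFP-positive cells. The axonal antigen Thy1 was dim throughout, between 5.17 and 6.02. Horizontal cell markers were called lower in 3 of 6 genes against rhoGFP-negative and 2 of 6 against nestinGFP-positive cells. Calb1 of the same list, dim on all arrays, passed on p the other way against nestinGFP-positive cells (0.44, limma adjusted p = 0.0368). The part of these cells in the falls of Ina, Nefm and Nefl and in the rise of Nefh was not tested.

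**Figure D3:**
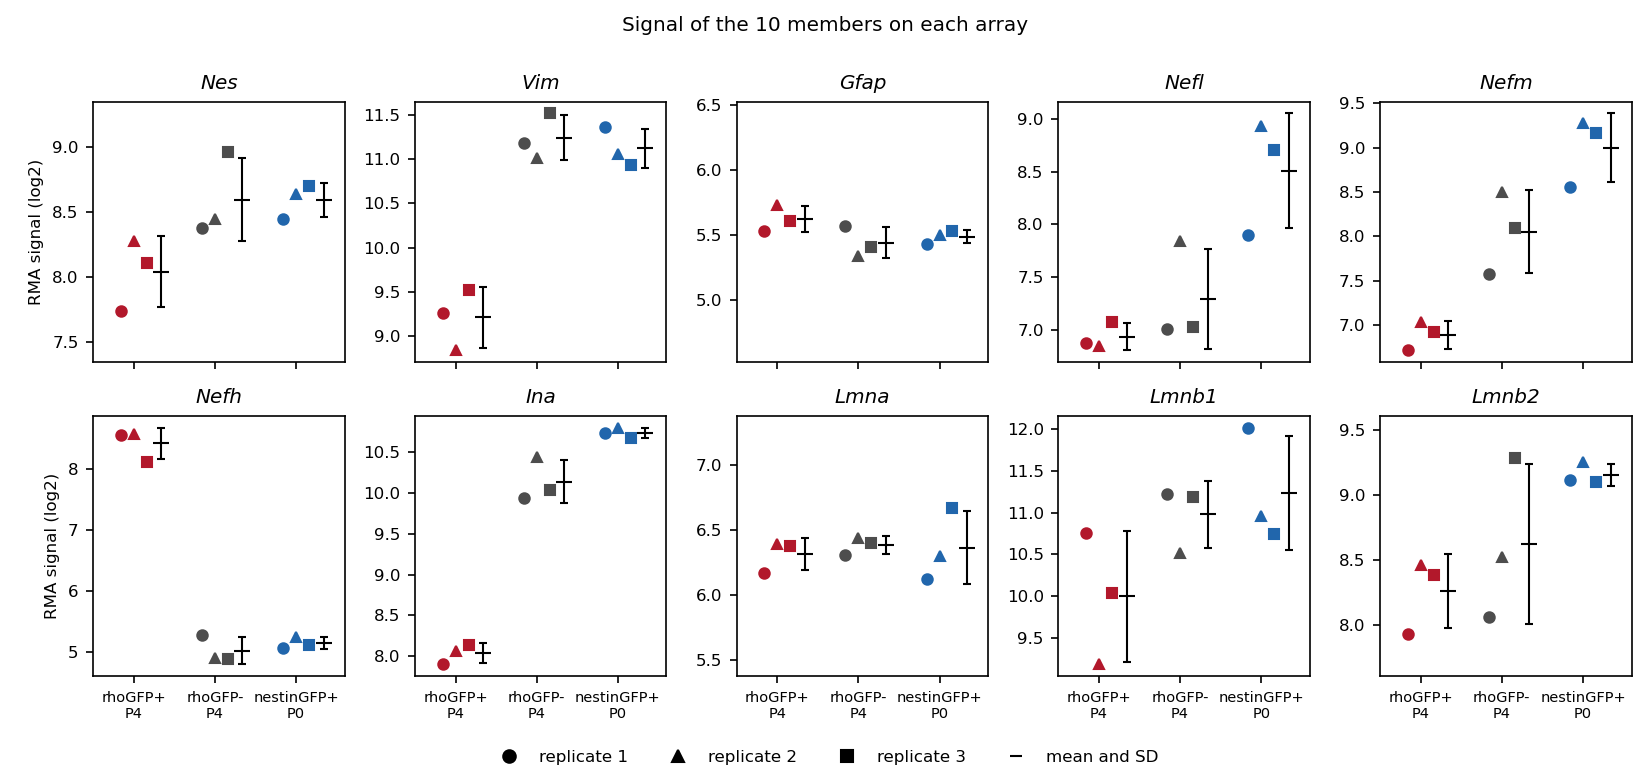
RMA signal (log2) of the 10 members on each array, by group, with the replicate number as the symbol and the mean ± SD (n = 3) as a black bar; the vertical scale differs between panels. The 3 rhoGFP-positive arrays lie below all others for Vim, Ina and Nefm and above all others for Nefh. Lmnb1 is highest on replicate 1 in each group.

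Lmna encodes lamins A and C, which accumulate as tissues mature and are known to be missing from adult mouse rods. Its brightest probe set gave 6.17, 6.39 and 6.38 in rhoGFP-positive, 6.31, 6.44 and 6.40 in rhoGFP-negative and 6.12, 6.30 and 6.67 in nestinGFP-positive cells. For this probe set all groups overlapped, near the median of the probe sets of the array. The means of the others over the 9 arrays were lower, from 4.52 to 6.02. At such signals, without detection calls, the lack of a call does not show that expression was unchanged. The difference was -0.07 (95% interval -0.396 to 0.252) against rhoGFP-negative and -0.05 (95% interval -0.375 to 0.273) against nestinGFP-positive cells, and both turned above 0 after quantile normalization. Against nestinGFP-positive cells 4 of its 5 probe sets lay between -0.14 and 0.16. The other gave 5.45, 5.59 and 5.65 in rhoGFP-positive against 5.98, 6.82 and 6.80 in nestinGFP-positive cells, without overlap. That difference of -0.97 ± 0.22 passed on p (limma adjusted p = 0.0106, over all probe sets) and fell short of 2-fold. Against rhoGFP-negative cells the same probe set stood at -0.41, also without overlap, and did not pass (limma adjusted p = 0.29, over all probe sets).

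Lmnb1 encodes lamin B1, which nearly all cells make and cycling cells make in quantity. It gave 10.76, 9.18 and 10.04 in rhoGFP-positive, 11.23, 10.52 and 11.19 in rhoGFP-negative and 12.02, 10.96 and 10.74 in nestinGFP-positive cells. The groups overlapped, and replicate 1 was the highest array of each group. The difference was -0.98 ± 0.43 against rhoGFP-negative cells (limma adjusted p = 0.135) and -1.25 ± 0.43 against nestinGFP-positive cells, where it was called (2.37-fold, limma adjusted p = 0.045). Adjusted over all probe sets that p of limma was 0.0618. The call was lost without rhoGFP-positive replicate 2 (-0.84, limma adjusted p = 0.159) or nestinGFP-positive replicate 1 (-0.86, limma adjusted p = 0.144). It was also lost without rhoGFP-positive replicate 3, nestinGFP-positive replicate 2 or any 1 of the rhoGFP-negative arrays (limma adjusted p = 0.0512 to 0.0914). Without replicate 1 of all groups the difference between the rhoGFP fractions was -1.24 and called (limma adjusted p = 0.0307). Within replicate numbers 1, 2 and 3 it was -0.47, -1.33 and -1.15, and with the number as a block the adjusted p of limma was 0.00788 at a size just below 2-fold.

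Lmnb2, for lamin B2, gave 7.93, 8.46 and 8.38 in rhoGFP-positive, 8.06, 8.52 and 9.28 in rhoGFP-negative and 9.11, 9.25 and 9.10 in nestinGFP-positive cells. The rhoGFP fractions overlapped and the nestinGFP-positive arrays lay above the rhoGFP-positive ones. The difference was -0.37 ± 0.27 against rhoGFP-negative cells (limma adjusted p = 0.406). It ran from -0.65 without rhoGFP-negative replicate 1 to -0.04 without rhoGFP-negative replicate 3, the highest array of that group. The difference was -0.90 ± 0.27 against nestinGFP-positive cells, which passed on p at 1.86-fold (limma adjusted p = 0.0262). The other Lmnb2 probe set was dimmer, with a mean of 5.82 over the 9 arrays. It stood at 0.05 against rhoGFP-negative and -0.18 against nestinGFP-positive cells, with overlap, and was not called. The B-type lamins are set beside 8 proliferation markers. Of these, 7 of 8 were called lower in rhoGFP-positive than in rhoGFP-negative cells and 8 of 8 than in nestinGFP-positive cells, with list medians of 7.18 to 8.44 in rhoGFP-positive, 9.16 to 10.55 in rhoGFP-negative and 10.78 to 10.89 in nestinGFP-positive arrays. On replicate 1, where Lmnb1 was highest in each group, the proliferation median was 7.18 in rhoGFP-positive cells (7.21 and 8.44 on replicates 2 and 3). It was 9.50 in rhoGFP-negative (9.16 and 10.55) and 10.89 in nestinGFP-positive cells (10.78 and 10.84). The part of proliferating cells in the lamin differences was not tested.

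Over all 25 probe sets of the members, 7 were called lower and 1 higher in rhoGFP-positive than in rhoGFP-negative cells, where 8.02% of all 45037 probe sets were called (4.96% lower and 3.07% higher). Against nestinGFP-positive cells 10 were lower and 1 higher, where 12.2% were called (7.78% lower and 4.45% higher). Between rhoGFP-negative and nestinGFP-positive cells limma called 0 of the 25, where 0.444% were called (0.164% higher and 0.28% lower). Probe sets of the same gene share RNA and are not replicates. They ran the same way for Nes, Vim, Nefl, Ina and Lmnb1 in both comparisons, while those of Gfap, Lmna and Lmnb2 lay on either side of 0 in at least 1 comparison.

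**Figure D4:**
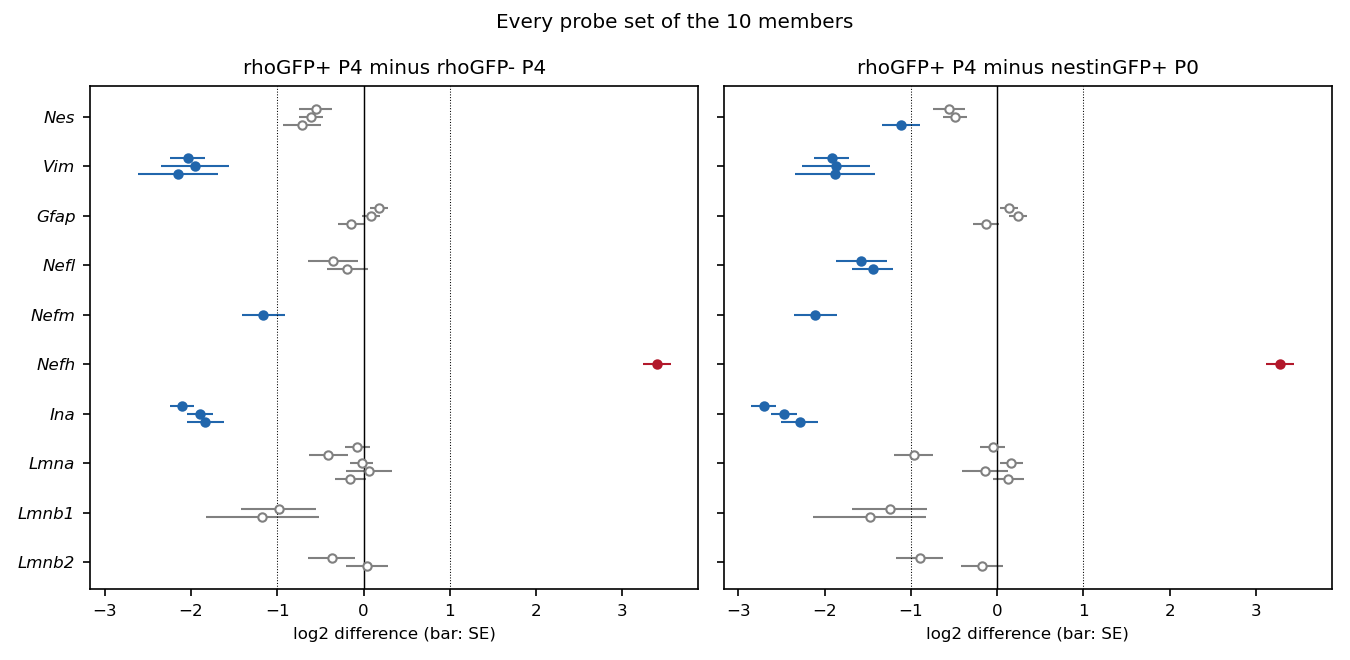
Log2 difference with its SE of every probe set of the 10 members, brightest first within a gene, in the 2 comparisons of the rhoGFP-positive cells. Filled points were called in the fit over all probe sets (blue lower, red higher) and dotted lines mark 1 log2 unit. The 3 probe sets of Vim lie between -1.87 and -2.15, and 1 of 5 probe sets of Lmna lies at -0.97 in the right panel.

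Genes that act with the lamins at the nuclear envelope went both ways. Of 26 measured, Icmt alone was called higher and 0 lower in rhoGFP-positive than in rhoGFP-negative cells, or 3.85% where 10.9% of all genes were called. Without a fold minimum 12 of the 26 passed, 5 higher and 7 lower, where 24.3% of all genes passed. Against nestinGFP-positive cells 4 were higher and 4 lower, 30.8% where 15.6% of all genes were called, with a median of -0.02. Icmt, the enzyme that methylates the prenylated end of B-type lamins and prelamin A, was at 11.52, 12.10 and 11.96 in rhoGFP-positive cells. It was at 9.78, 10.05 and 9.89 in rhoGFP-negative and 9.39, 9.60 and 9.44 in nestinGFP-positive cells. That is 3.87-fold higher than in rhoGFP-negative cells (1.95 ± 0.16, limma adjusted p = 2.05e-05) and 5.22-fold higher than in nestinGFP-positive cells (2.38 ± 0.16, limma adjusted p = 4.17e-06).

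Fntb, the β subunit of the farnesyl transferase that starts the same processing, was at 1.12 ± 0.11 against nestinGFP-positive cells and 0.85 ± 0.11 against rhoGFP-negative cells. The proteins that span the envelope divided. Sun1, of the inner membrane, rose against nestinGFP-positive cells by 1.11 ± 0.11 (limma adjusted p = 3.98e-05), while its relative Sun2 fell by 1.12 ± 0.11 (limma adjusted p = 3.49e-05). Averaged over its 2 probe sets Sun2 stood at -0.83 and was not called. Against rhoGFP-negative cells they stood at 0.86 and -0.88, past the adjusted p but short of 2-fold. Syne2, their outer-membrane partner nesprin, was called at 1.09 against nestinGFP-positive cells, while the mean over its 4 probe sets, at 0.80, was not; it is named after its value was seen, as is the chromatin kinase Vrk1 (-1.07; -0.93 and not called after quantile normalization).

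Lbr, the lamin B receptor that holds heterochromatin at the envelope of immature cells, was at 9.80, 9.54 and 9.62 in rhoGFP-positive, 10.16, 9.93 and 10.88 in rhoGFP-negative and 11.27, 11.09 and 10.93 in nestinGFP-positive cells. The 3 groups did not overlap. It fell against nestinGFP-positive cells (-1.44 ± 0.22, limma adjusted p = 0.000602) and stood at -0.67 ± 0.22 against rhoGFP-negative cells (limma adjusted p = 0.0516, and 0.0292 with the replicate number as a block). Tmpo, for the lamina-associated polypeptide LAP2, fell against nestinGFP-positive cells (-1.31 ± 0.15), while the mean over its 6 probe sets, at -0.84, was not called. Emd, for emerin, was at -0.96 against nestinGFP-positive and -0.70 against rhoGFP-negative cells, both past the adjusted p and short of 2-fold.

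**Figure D5:**
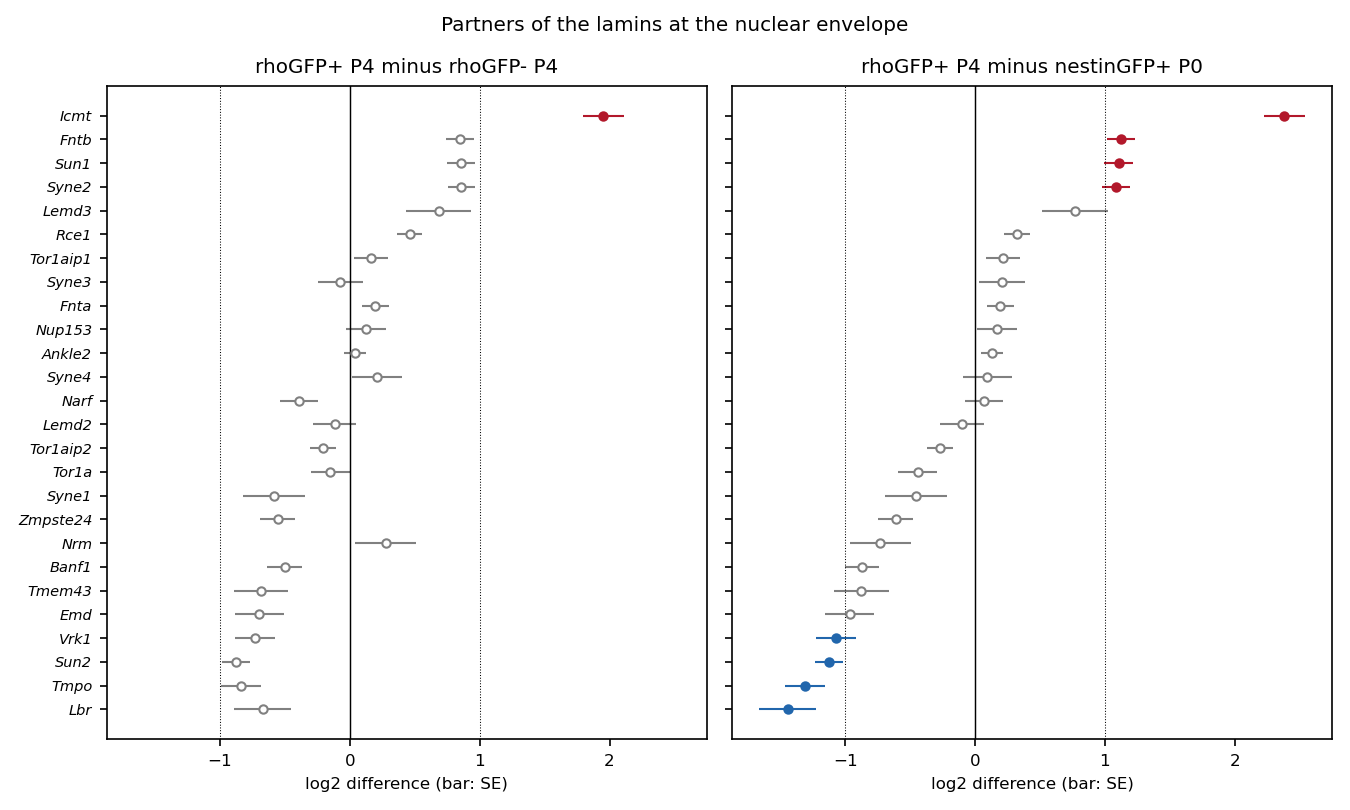
Log2 difference with its SE of the 26 measured partner genes of the lamins, in the 2 comparisons of the rhoGFP-positive cells, ordered by the right panel. Filled points were called (blue lower, red higher) and dotted lines mark 1 log2 unit. Icmt lies highest in both panels and Lbr lowest in the right one.

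The genes whose signal ran most like a member's over the 9 arrays were sought among 3325 genes with an SD of at least 0.5, as a description. The arrays fall into groups, so that such a correlation follows the group means. For Vim they were Pdpn and Cnp (Pearson r = 0.998 each) and Kdr (r = 0.997), and for Lmnb1 they were Tmem14c (r = 0.988), Dtx3l (r = 0.970) and Cyp20a1 (r = 0.948). For Nefl they were Ccdc106 (r = 0.963), Wipf3 and Pde4b (r = 0.958 each), and for Nes they were Septin8 (r = 0.951), Serinc2 (r = 0.949) and Pttg1 (r = 0.945). Lmna varied least among these members (SD 0.161 over the arrays) and ran most like Grik5 (r = 0.924), Rgs11 (r = 0.904) and Pik3cd (r = 0.899).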

How the data were processed

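RNA of 9 pooled samples of sorted cells was labelled from 200 ng of total RNA and hybridised to 1-colour Affymetrix arrays, per the labels. The values deposited by the authors are log2 signals from RMA, per the submitters' processing notes, which name no version. RMA includes a background correction, quantile normalization and a summary over the probes of a set, and no detection calls or scan batches were at hand. Of 45037 probe sets that are not controls, the platform annotation tied 34945 to 1 symbol, 932 to several and 9160 to none; symbols of 34741 were updated by Entrez ID. A gene was represented by its brightest probe set over the 9 arrays.

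The tests used limma 3.58.1 (R 4.3.3; lmFit, eBayes, two-sided, 6 residual degrees of freedom) on 3 group means over all 9 arrays together. P values were adjusted over the 18193 genes, or over the 45037 probe sets where each probe set is given. The step was tested on simulated data. Figures were drawn with matplotlib 3.10.9.

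Replicate numbers recur in each group without a stated link. Between the rhoGFP fractions, arrays of a number deviated together from their group means (correlation over genes 0.62, 0.45 and 0.45, against at most 0.074 for unlike numbers). The numbers may pair these arrays, on that ground alone. For rhoGFP-negative with nestinGFP-positive arrays the values were 0.54, 0.15 and 0.23. There number 2 with number 3 gave 0.22, so that a pairing is unclear. All p values given are from the fit without the block, and the fit with the replicate number as a block is an alternative, named where its value is given. For rhoGFP-positive with nestinGFP-positive arrays the values were 0.52, -0.0081 and 0.25. There rhoGFP-positive number 2 with nestinGFP-positive number 3 gave 0.39, so that no pairing was shown. Members, lists and tests were chosen with earlier results of these data known. Named were the 10 members, the 3 largest called differences each way of each partner list in each comparison, Lbr, Emd, Sun1, Synm, Prph and Plec whatever their result, and the 3 genes most like Nes, Vim, Nefl, Lmna and Lmnb1; further genes beside a count were named after their values were seen. Alternatives were other scalings, probe-set rules, a filter on dim genes, the 6 arrays compared, the replicate block, eBayes settings, other thresholds and leaving out arrays.

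Promoter windows are from RefSeq (GRCm38.p6); 6 of the 10 members matched. P values weigh a difference between groups against the spread between pooled samples within the groups. In the fit without the block, that spread includes any effect that arrays of a replicate number share.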

Additional observations from a re-analysis of the deposited data

How the results depend on the processing

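Of 624 recomputed differences of the 10 members (30 differences, up to 21 alternatives each), 586 kept their direction and their side of the thresholds, 13 lost a call, 8 gained one and 17 changed sign. The counts of called members kept within 1.5 times, except that Nefh, with a low mean over the 9 arrays, is removed with the dim genes, which left 0 members called higher in both comparisons of rhoGFP-positive cells. Between rhoGFP-negative and nestinGFP-positive cells 1 member (Nefl) was called lower with the mean of all probe sets (-1.23) and with the replicate block, and 0 to 2 without 1 array. Leaving out an array gave 2 to 4 members lower between the rhoGFP fractions and 4 to 5 against nestinGFP-positive cells. The replicate block changed no other call of a member and moved the calls among all genes between rhoGFP-negative and nestinGFP-positive cells to 132 higher and 321 lower, from 70 and 110; with only the 6 arrays compared they were 13 and 15, without 1 array 8 to 145 and 11 to 414, at an adjusted p below 0.01 10 and 13, and with no fold minimum 173 and 197. With no fold minimum 1830 and 2587 genes were called between the rhoGFP fractions (656 and 1332 with it) and 2906 and 3602 against nestinGFP-positive cells (921 and 1917). Nefm lost its call between the rhoGFP fractions after quantile normalization (-0.95). Lmnb1 against nestinGFP-positive cells lost its call in 11 alternatives.

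All changes of sign were in differences that were not called. After quantile normalization Lmna turned to 0.126 against rhoGFP-negative and 0.172 against nestinGFP-positive cells, and without an array the second ran from -0.173 to 0.104. Between rhoGFP-negative and nestinGFP-positive cells the mean of all probe sets gave -0.092 for Nes, 0.0395 for Gfap and -0.0558 for Lmna. Leaving out arrays there gave Nes -0.181 to 0.109, Vim -0.0175 to 0.272, Gfap -0.134 to 0.00513, Lmna -0.10 to 0.176, Lmnb1 -0.51 to 0.128 and Synm -0.44 to 0.15. The cause of these changes was not tested. No alternative scaling moved the median of all genes by over 0.1.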

Other observations

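Few other intermediate filament genes were called. Of 25 measured keratins, lens filaments and relatives, limma called 1 higher and 1 lower in rhoGFP-positive cells in each comparison. That is 8%, where 10.9% (against rhoGFP-negative) and 15.6% (against nestinGFP-positive) of all genes were called. The median of this list was 5.56 to 5.73 over the arrays, below the median of all probe sets (6.08 to 6.17). There a signal cannot be told from background without detection calls. For the dim genes of the list, the lack of a call therefore does not show that expression was unchanged. Krt18, a keratin of simple epithelia, was higher, at 7.42, 7.63 and 7.28 in rhoGFP-positive, against 5.95, 6.42 and 6.85 in rhoGFP-negative and 6.18, 6.35 and 5.37 in nestinGFP-positive cells. Its difference was 1.03 ± 0.28 against rhoGFP-negative cells (limma adjusted p = 0.0225) and 1.47 ± 0.28 against nestinGFP-positive cells (limma adjusted p = 0.00233), and it lost its call between the rhoGFP fractions without rhoGFP-positive replicate 1 or 2 or rhoGFP-negative replicate 1 or 2. Krt8, its usual polymer partner, was at 0.0072 and 0.03. Krt12, a keratin of the cornea, was lower than in rhoGFP-negative cells (-1.30) and Krt15 lower than in nestinGFP-positive cells (-1.55), both from dim signals. Synm, a filament protein that joins vimentin, was at -0.48 and -0.64 and Prph, for peripherin, at 0.16 and 0.26, none of them called.

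Of 7 cytolinkers, large proteins that tie filaments to other structures, Dst was lower in rhoGFP-positive cells, at 7.97, 7.92 and 8.34, against 9.53, 9.61 and 9.68 in rhoGFP-negative and 10.03, 9.67 and 10.54 in nestinGFP-positive cells (2.88-fold and 4.01-fold, limma adjusted p = 0.00043 and 4.95e-05). Averaged over its 4 probe sets Dst stood at -0.75 and -0.85 and was not called. Plec, for plectin, was called against nestinGFP-positive cells (-1.31 ± 0.35, limma adjusted p = 0.0159), and it was not called when averaged over its 3 probe sets (-0.83), without _x_at and _s_at probe sets (-1.19, limma adjusted p = 0.0629), and without rhoGFP-positive replicate 1 (limma adjusted p = 0.0571) or nestinGFP-positive replicate 3 (-0.93).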
